A study of Mus musculus with 6 samples.

Results

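Iron storage and transport in the eye rests on a small number of proteins, and 10 of their genes were followed here in mouse RPE-choroid. They were chosen by symbol, as Fth1, Ftl1, Tfrc, Trf, Slc40a1, Slc11a1, Slc11a2, Cp, Heph and Hfe. All 10 were among the 15663 genes listed for each library, and all 10 were among the 13454 genes that exceeded 50 counts in 2 or more libraries, the minimum for a test. RPE-choroid combines the pigmented epithelium that nourishes the photoreceptors (retinal pigment epithelium, RPE) and the vascular choroid on which it rests. RNA was sequenced from 3 untreated control mice and from 3 mice with subretinal fibrosis (SRF), a scar that forms under the retina. The labels give the strain of all 6 mice as C57BL/6, and the study's methods name the substrain C57BL/6J and give males of 8 to 10 weeks. SRF followed a two-stage laser treatment, with 4 burns in each eye and a second burn of every lesion 10 days later, and RNA was taken 20 days after that. The whole RPE-choroid was used and not the lesions alone, and nothing in the labels says whether both eyes of a mouse were pooled.

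Cells take up transferrin-bound iron through the transferrin receptor, keep what they do not use inside ferritin shells, and release iron through ferroportin, aided by the copper oxidases ceruloplasmin and hephaestin. Several of these mRNAs carry an iron-responsive element (IRE), a short hairpin bound by the iron regulatory proteins when iron is scarce. Binding near the 5′ end blocks translation, as for ferritin and ferroportin, and binding in the 3′ end protects the transferrin receptor mRNA from decay. RNA levels therefore do not report on the translation of ferritin or ferroportin. The RNA level of Tfrc can be affected through its IREs, but other influences on it cannot be told apart here.

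The IREs are shown because they divide these genes into those with the hairpin in the 5′ UTR and the one with several in the 3′ UTR. The pattern CNNNNNCAGTGN was searched on the sense strand in the UTRs of protein-coding transcripts of GENCODE M21, on mouse genome build GRCm38. A full match also had all 5 bases before the loop paired with the 5 bases after it. In the lines that follow, each sequence holds 27 bases, written 5′ to 3′ with T for U, and the capitals mark the bulged C and the 6-base loop.
Fth1, 5′ UTR, chr19:9982733-9982759, forward strand: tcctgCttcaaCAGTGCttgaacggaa
Ftl1, 5′ UTR, chr7:45459780-45459806, reverse strand: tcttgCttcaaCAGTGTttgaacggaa
Slc40a1, 5′ UTR, chr1:45925466-45925492, reverse strand: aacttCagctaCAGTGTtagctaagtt
Tfrc, 3′ UTR, chr16:32631220-32631246, forward strand: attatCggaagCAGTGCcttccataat
Tfrc, 3′ UTR, chr16:32631599-32631625, forward strand: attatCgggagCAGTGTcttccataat
Tfrc, 3′ UTR, chr16:32631664-32631690, forward strand: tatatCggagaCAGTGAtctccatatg
Tfrc, 3′ UTR, chr16:32631711-32631737, forward strand: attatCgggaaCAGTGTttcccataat
Slc11a2, 3′ UTR, chr15:100395154-100395180, reverse strand: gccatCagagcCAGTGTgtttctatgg

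Fth1, Ftl1 and Slc40a1 each held 1 full match in the 5′ UTR, and Tfrc held 4 in the 3′ UTR. The Slc11a2 hairpin paired at 4 of the 5 positions and lay in the 3′ UTR of Slc11a2-205 alone, 1 of its 6 protein-coding transcripts. The full matches of Ftl1, Slc40a1 and Tfrc also lay in 1 transcript each (Ftl1-201 of 2, Slc40a1-201 of 4 and Tfrc-201 of 3 protein-coding transcripts). UTRs at an incomplete end of a coding sequence were skipped, so a transcript without a match may not have been searched there. That of Fth1 lay in Fth1-201, Fth1-203, Fth1-204 and Fth1-209 of 5. The deposited values are given per gene, so transcripts with and without these elements cannot be told apart. Full matches were rare, in 17 of 15089 listed genes with a 5′ UTR (0.113%) and in 107 of 15445 with a 3′ UTR (0.693%). The letters without the pairing were common, in 9.2% of 5′ UTRs and 39.1% of 3′ UTRs. In this search of 1 transcript per gene, Tfrc was the only listed gene with more than 1 full match in its 3′ UTR. Trf, Cp and Hfe had no match to the letters in these windows, and the matches in Slc11a1 and Heph paired at 0 and 3 of 5 positions. A match is a description of the sequence and no binding was measured.

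Counts on listed genes summed to between 13667310 and 24356023 per library. Levels are given as CPM, which scales counts to a common library size by edgeR's TMM method, or as the deposited FPKM where genes are compared with each other, because FPKM also divides by transcript length. SRF and control were compared by the quasi-likelihood F test of edgeR, with p-values adjusted over every tested gene by the Benjamini-Hochberg method. A call required an adjusted p under 0.05 together with an absolute log2 fold change of 0.5 or more. Mice are the replicates (n = 3 per group), and errors of levels are SDs. Control mouse 1 and SRF mouse 3 stood apart, with 13870 and 13409 CPM summed over 17 photoreceptor markers against 807 to 1910 CPM in the other libraries. Photoreceptors lie outside RPE-choroid, so results are also given without these 2 libraries. The RPE identity of the tissue was clear from Rpe65, which encodes the retinoid isomerase of the visual cycle, at 2524 to 4687 CPM. Best1, a channel gene usually used to mark RPE, lay at only 2.77 to 4.55 CPM.

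Per transcript length the 10 genes fell into an abundant and a scarce group. Transferrin and the 2 ferritin chains were among the most abundant RNAs of the tissue. In control mice Trf averaged 8258 ± 502 FPKM, Ftl1 6276 ± 530 FPKM and Fth1 3554 ± 159 FPKM. Ranked by FPKM among all listed genes, Ftl1 held places 3 to 9, Trf places 5 to 8 and Fth1 places 9 to 15 over the 6 libraries. Trf alone took between 1.61% and 2.2% of all counts. The 10 genes together took between 2.69% and 3.25%.

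The other 7 genes lay far lower, at no more than 47.7 FPKM in any library. In controls Cp averaged 42.0 ± 5.41 FPKM and Hfe 33.5 ± 6.93 FPKM. Below them came Slc11a2 at 12.1 ± 2.54, Slc11a1 at 9.98 ± 4.67, Heph at 9.83 ± 2.40, Tfrc at 9.5 ± 1.71 and Slc40a1 at 5.42 ± 1.80 FPKM. The ranges of Slc11a2, Slc11a1, Heph and Tfrc overlapped in the controls, so their order was not resolved, and Slc40a1 overlapped only Slc11a1 among them. Cp and Hfe also overlapped each other over the control libraries. In SRF mice the order of the means was Ftl1, Trf, Fth1, Cp, Hfe, Slc11a1, Slc11a2, Heph, Slc40a1 and Tfrc. Trf exceeded Ftl1 in all 3 control mice and in SRF mouse 3, and Ftl1 exceeded Trf in SRF mice 1 and 2.

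**Figure D1:**
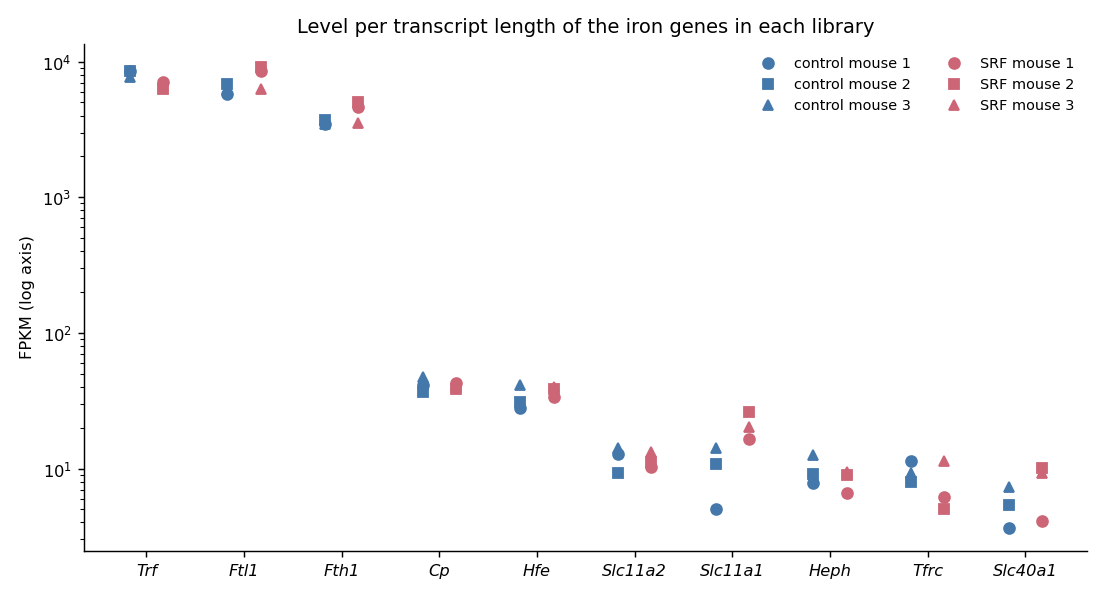
FPKM of each gene (log axis) in every library, with control mice in blue and SRF mice in red and the marker shape giving the mouse number. Trf, Ftl1 and Fth1 lie at or above 3439.5 FPKM in every library, and the other 7 genes reach at most 47.7 FPKM.

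None of the 10 genes passed both thresholds. The edgeR test called 0 of the 10, and it called 0 of all 13454 tested genes (0% called). DESeq2, the tool named by the study, also called 0 of the 10, against 153 of all tested genes (1.14%). An unadjusted edgeR p under 0.05 was reached by 2 of the 10, Slc11a1 with higher and Trf with lower values in SRF, against 943 of all tested genes (7.01%). These were also the only 2 whose groups did not overlap. Over all tested genes the groups did not overlap with SRF higher for 6.71% and with SRF lower for 6.43%. The log2 fold changes of the 10 genes lay between -0.38 and 1.01, 5 above and 5 below 0, with a median of 0.00, equal to the median of 0.00 over all tested genes.

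**Figure D2:**
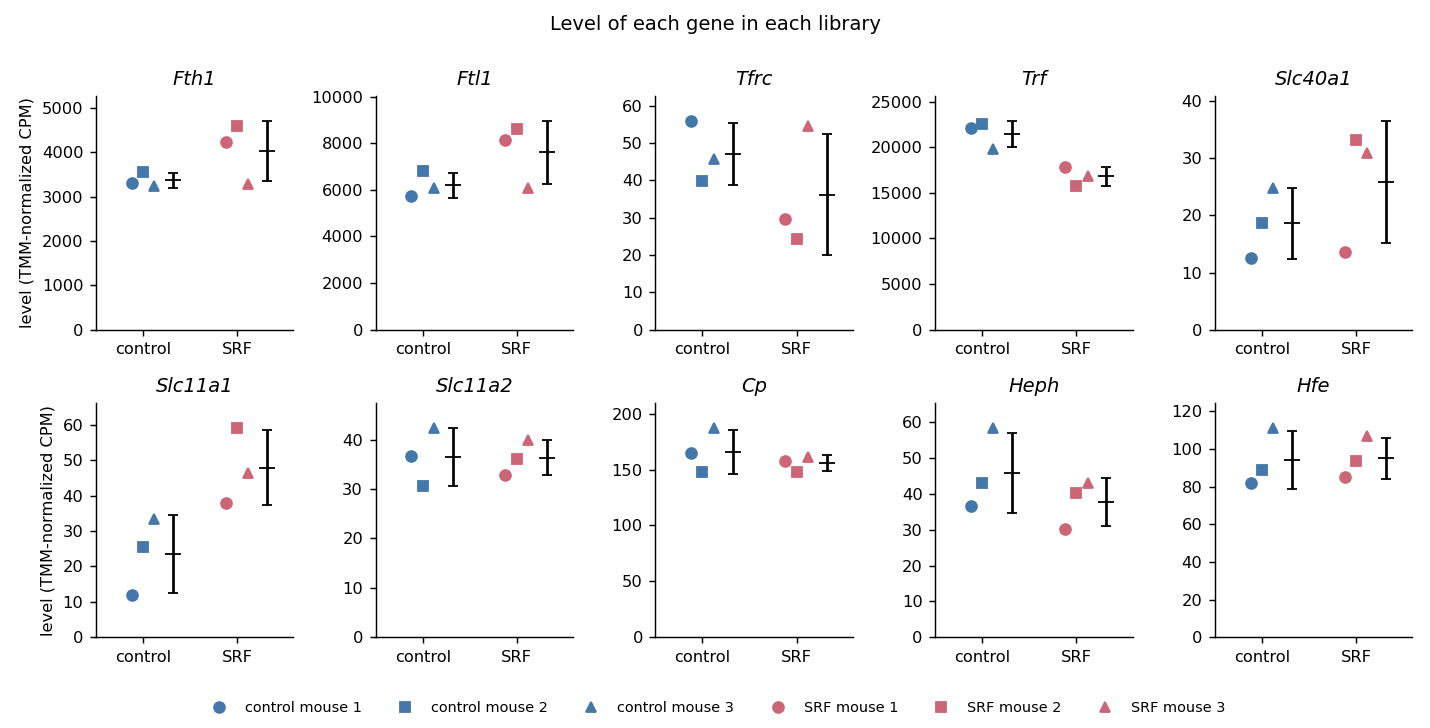
TMM-normalized CPM of each gene by group, with points for single libraries and a bar for the mean and SD of 3 mice, on axes that start at 0. Only Slc11a1 (38.0 to 59.0 CPM in SRF, 11.8 to 33.5 in control) and Trf (15760 to 17790 CPM in SRF, 19849 to 22501 in control) show groups that do not overlap.

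Ferritin is a hollow shell built from heavy chains, encoded by Fth1, which oxidize iron as it enters, and light chains, encoded by Ftl1, which help to form the mineral core. Fth1 was measured at 3296, 3557 and 3247 CPM in control mice 1 to 3 and at 4223, 4592 and 3277 CPM in SRF mice 1 to 3. SRF mice 1 and 2 exceeded every control, whereas SRF mouse 3 lay within the control range. The log2 fold change was 0.26 ± 0.15 (SE, edgeR adjusted p = 0.84), with a 95% interval from -0.08 to 0.60. Ftl1 stood at 5730, 6799 and 6059 CPM in controls and at 8145, 8623 and 6069 CPM in SRF mice. Its order across libraries resembled that of Fth1, with SRF mice 1 and 2 high and SRF mouse 3 among the controls. The log2 fold change of Ftl1 was 0.30 ± 0.16 (SE, edgeR adjusted p = 0.811), with a 95% interval from -0.07 to 0.67.

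The ratio of light to heavy chain varied little. Ftl1 exceeded Fth1 in FPKM by factors of 1.67, 1.83 and 1.79 in controls and by 1.85, 1.80 and 1.78 in SRF mice. Over the SRF libraries Fth1 itself ranged from 3555 to 5061 FPKM and Ftl1 from 6318 to 9120 FPKM. Without control mouse 1 and SRF mouse 3 the log2 fold changes were 0.37 ± 0.13 for Fth1 and 0.38 ± 0.14 for Ftl1 (SE, edgeR adjusted p = 0.22 and 0.218). DESeq2 without SRF mouse 3 alone gave 0.38 ± 0.10 for Fth1 and 0.43 ± 0.12 for Ftl1 (SE, adjusted p = 0.0154 and 0.0216). Neither was called there, because both differences were smaller than a call requires, and the edgeR adjusted p was 0.3 and 0.294. The DESeq2 adjusted p was 0.881 and 0.85 with all libraries, and 0.133 and 0.118 without both mice. Ftl1-ps1, a listed gene named as a pseudogene of Ftl1, could exchange reads with it. It lay at 79.2, 85.6 and 68.1 CPM in controls and at 104, 111 and 64.9 CPM in SRF mice, far below the level of Ftl1 itself.

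Transferrin, encoded by Trf, carries ferric iron in blood and in the eye, where RPE is a known source. Trf was measured at 22079, 22501 and 19849 CPM in controls and at 17790, 15760 and 16846 CPM in SRF mice. Each SRF mouse lay below each control. The mean was 21476 ± 1425 CPM in controls and 16799 ± 1016 CPM in SRF, a ratio of 0.782. The log2 fold change of -0.35 ± 0.10 (SE) had a 95% interval from -0.59 to -0.11 and an edgeR adjusted p of 0.437. DESeq2 gave an adjusted p of 0.0647, and the size of the difference was below the 0.5 required for a call in every alternative run. With DESeq2 the adjusted p was 0.299, 0.487 and 0.0271 without control mouse 1, 2 or 3. It was 0.0447, 0.569 and 0.0532 without SRF mouse 1, 2 or 3, and 0.205 without control mouse 1 and SRF mouse 3. The unadjusted p of Trf was 0.01 in the main edgeR test and 0.0815 in edgeR with legacy = FALSE. It was 0.128 and 0.132 with limma on log2(FPKM + 0.1) and log2(FPKM + 1), and 0.0558 in edgeR without control mouse 2. In the other alternatives it stayed under 0.05. Of the 3320 exonic bases of Trf, 2108 are shared with Gm20425, an unlisted protein-coding gene model on the same strand, so the 2 cannot be separated by reads in these exons.

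The RPE markers moved in the same direction as Trf. Summed over the 12 markers they reached 51459, 54352 and 46388 CPM in controls and 41186, 34157 and 31768 CPM in SRF mice, again without overlap. Of the 12 markers, 9 had lower and 3 had higher fitted values, and DESeq2 called 2. Rgr, a retinal G protein-coupled receptor gene of RPE, differed by a log2 fold change of -0.69 ± 0.12 (SE, DESeq2 adjusted p = 6.89e-05), and Lrat, which esterifies retinol, by -0.74 ± 0.13 (SE, DESeq2 adjusted p = 7.69e-05). Relative to the control mean, Trf stood at 0.828, 0.734 and 0.784 in SRF mice 1 to 3 and the summed RPE markers at 0.812, 0.673 and 0.626. Rgr alone made up 49.9% of that sum in controls, and the other 11 markers together stood at 0.930, 0.794 and 0.640 in SRF mice. Without Rgr the groups overlapped, since control mouse 3 stood at 0.860. The median log2 fold change of the 12 markers was -0.31. In bulk tissue, fewer cells of a type and less RNA per cell cannot be told apart. The part of the RPE share in the Trf result was not tested.

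The transferrin receptor, encoded by Tfrc, internalizes transferrin with its iron. Tfrc lay at 56.0, 39.8 and 45.6 CPM in controls and at 29.6, 24.2 and 54.7 CPM in SRF mice. SRF mice 1 and 2 were below every control, and SRF mouse 3 was close to control mouse 1, the highest library. These 2 libraries were also the 2 with high photoreceptor RNA, whose part in the Tfrc level was not tested. The log2 fold change over all libraries was -0.38 ± 0.31 (SE, edgeR adjusted p = 0.941), with a 95% interval from -1.12 to 0.36. Without control mouse 1 and SRF mouse 3 it was -0.67 ± 0.16 (SE, edgeR adjusted p = 0.0972), and DESeq2, in a fit added after the data had been seen, called Tfrc lower (adjusted p = 0.0334). Without SRF mouse 3 alone the log2 fold change was -0.80 ± 0.18 (SE, edgeR adjusted p = 0.246), and DESeq2 again called Tfrc (adjusted p = 0.0124). Without SRF mouse 2 it was -0.16 ± 0.30 (SE, edgeR adjusted p = 1). A fit with the photoreceptor level as a covariate kept all 6 libraries and gave -0.40 ± 0.19 (SE, edgeR adjusted p = 0.603). The DESeq2 fits that called Tfrc called 507 of 13145 tested genes without both mice and 343 of 13224 without SRF mouse 3 alone.

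HFE is a membrane protein that binds the transferrin receptor and takes part in sensing transferrin iron. Hfe was even across the groups, at 82.0, 88.8 and 111 CPM in controls and 85.0, 93.7 and 107 CPM in SRF mice. The ranges overlapped almost completely, and the log2 fold change was 0.016 ± 0.15 (SE, edgeR adjusted p = 1), with a 95% interval from -0.35 to 0.38. Of Trf, Tfrc and Hfe only Trf had groups that did not overlap, with SRF lower. Over all tested genes this held for 6.43% with SRF lower and 6.71% with SRF higher.

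Ferroportin, encoded by Slc40a1, is the only known exporter of iron from mammalian cells. Slc40a1 had the lowest mean FPKM of the 10 genes in controls. It lay at 12.5, 18.6 and 24.8 CPM in controls and at 13.6, 33.2 and 31.0 CPM in SRF mice. SRF mouse 1 lay inside the control range and the other 2 SRF mice above it. The log2 fold change was 0.47 ± 0.38 (SE, edgeR adjusted p = 0.939), with a 95% interval from -0.43 to 1.37. Relative to the control mean, Slc40a1 stood at 0.671, 0.996 and 1.33 in controls and at 0.731, 1.78 and 1.67 in SRF mice. The summed fibroblast markers stood at 0.654, 0.842 and 1.5 in controls and at 1.0, 1.39 and 1.65 in SRF mice, lowest in control mouse 1 as was Slc40a1, and their part in the Slc40a1 level was not tested. For Slc40a1 the log2 fold change was 0.10 ± 0.35 without control mouse 1 and SRF mouse 3, and 0.78 ± 0.29 without SRF mouse 1 (SE, edgeR adjusted p = 0.907 and 0.813).

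Ceruloplasmin (Cp) and hephaestin (Heph) are copper oxidases that convert iron to the ferric form as it leaves the cell. Cp was measured at 165, 148 and 187 CPM in controls and at 158, 148 and 161 CPM in SRF mice. All 3 SRF values lay inside the control range, and the log2 fold change was -0.094 ± 0.12 (SE, edgeR adjusted p = 0.999), with a 95% interval from -0.38 to 0.20. Heph lay at 36.5, 43.0 and 58.3 CPM in controls and at 30.1, 40.2 and 42.9 CPM in SRF mice. SRF mouse 1 was the lowest library and the others lay inside the control range, so the groups overlapped. The log2 fold change of Heph was -0.29 ± 0.21 (SE, edgeR adjusted p = 0.93), and without control mouse 1 and SRF mouse 3 it was -0.53 ± 0.20 (SE, edgeR adjusted p = 0.227). Cp exceeded Heph in FPKM by factors between 3.82 and 5.28 in controls and between 4.32 and 6.46 in SRF mice.

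Slc11a1 and Slc11a2 encode related proton-coupled metal transporters. Slc11a1 (NRAMP1) sits in the phagosome membrane of macrophages and neutrophils, and Slc11a2 (DMT1) carries ferrous iron across the cell surface and out of endosomes in many cell types. Slc11a1 showed the largest difference of the 10 genes. It lay at 11.8, 25.4 and 33.5 CPM in controls and at 38.0, 59.0 and 46.5 CPM in SRF mice. Each SRF mouse exceeded each control, and control mouse 1 was far below the other 2 controls. The mean was 23.6 ± 11 CPM in controls and 47.8 ± 10.6 CPM in SRF, and the log2 fold change was 1.01 ± 0.37 (SE, edgeR adjusted p = 0.604), with a 95% interval from 0.15 to 1.88. DESeq2 gave an adjusted p of 0.217. Without control mouse 1 the log2 fold change was 0.70 ± 0.23 (SE, edgeR adjusted p = 0.503). Without control mouse 3 it was 1.36 ± 0.37 (SE, edgeR adjusted p = 0.611), and there DESeq2 called the gene (adjusted p = 0.0396). DESeq2 also called it when mouse number was added as a replicate block (adjusted p = 0.0128), although the labels do not pair the animals by number. Over all tested genes DESeq2 called 182 of 13313 without control mouse 3 and 201 of 13454 with the replicate block.

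Slc11a2 did not separate the groups, at 36.6, 30.7 and 42.3 CPM in controls and 32.9, 36.1 and 39.9 CPM in SRF mice. Its log2 fold change was -0.0081 ± 0.15 (SE, edgeR adjusted p = 1), with a 95% interval from -0.37 to 0.36. Per transcript length, Slc11a1 stood at 0.39, 1.16 and 1.01 times the level of Slc11a2 in controls and at 1.61, 2.33 and 1.53 times in SRF mice. Slc11a1 was therefore the higher of the pair in all 3 SRF mice and in 2 of 3 controls. This ratio was chosen after its values were seen and was not tested.

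Macrophage markers were higher in the same libraries as Slc11a1. The 14 markers summed to 1477, 1922 and 1904 CPM in controls and to 3364, 4855 and 3577 CPM in SRF mice, without overlap. Of the 14, 13 had higher fitted values, 10 of them with an unadjusted edgeR p under 0.05, and DESeq2 called 5. Lyz2, which encodes lysozyme, had a log2 fold change of 1.49 ± 0.21 (SE, DESeq2 adjusted p = 1.89e-08), and Cd68, a lysosomal protein of macrophages, one of 1.05 ± 0.16 (SE, DESeq2 adjusted p = 9.54e-06). Csf1r, the receptor for macrophage colony-stimulating factor, had a log2 fold change of -0.027 ± 0.11 (SE, DESeq2 adjusted p = 1). Relative to the control mean, Slc11a1 stood at 1.61, 2.50 and 1.97 in SRF mice 1 to 3 and the summed macrophage markers at 1.90, 2.75 and 2.02. Lyz2 alone made up 65.5% of the marker sum in SRF and 51.8% in controls, and the other 13 markers together stood at 1.51, 1.82 and 1.45. The median log2 fold change of the 14 markers was 0.76. In control mice 1 to 3 Slc11a1 stood at 0.499, 1.08 and 1.42 and the macrophage markers at 0.836, 1.09 and 1.08. Slc11a1 thus lay below the markers in control mouse 1 and above them in control mouse 3. The 7 fibroblast markers summed to 0.654, 0.842 and 1.5 times their control mean in the same mice. The part of the macrophage share in the Slc11a1 result was not tested.

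**Figure D3:**
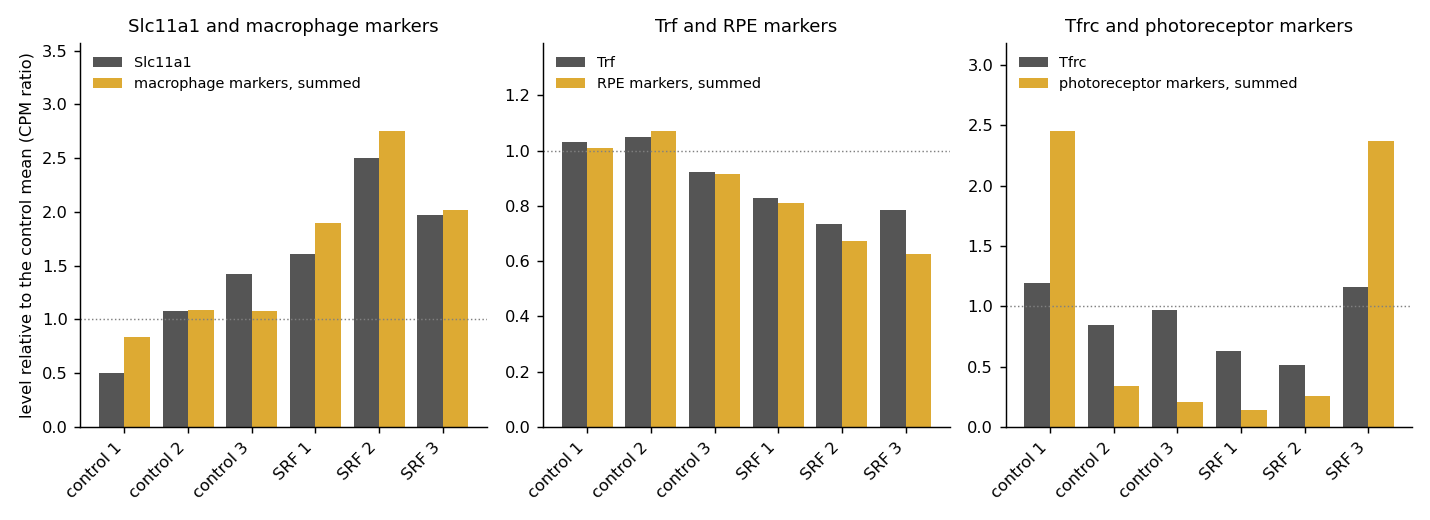
Level of Slc11a1, Trf and Tfrc (grey bars) and of the summed macrophage, RPE and photoreceptor markers (yellow bars) in each library, as a ratio of the control mean, which is the dotted line at 1. Slc11a1 and the macrophage markers (Lyz2 included) are both above 1.6 in the 3 SRF libraries, Trf and the RPE markers (Rgr included) are both below 0.83 there, and Tfrc is highest in the 2 libraries in which photoreceptor markers exceed 2.3.

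Red blood cells hold much of the iron of the body, so the RNA of their markers was counted as well. Marker RNA does not measure the amount of blood or its iron. Of 10 red blood cell markers 7 were listed and 5 were tested, and none was called or reached an unadjusted edgeR p under 0.05. They summed to 3574, 4359 and 3194 CPM in controls and to 3678, 4507 and 2204 CPM in SRF mice, so the groups overlapped and SRF mouse 3 was lowest. Slc4a1, which encodes an anion exchanger of the red cell membrane, reached at most 1.03 CPM in any library, and 4 globin genes made up most of the sum.

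The comparison without control mouse 1 and SRF mouse 3 leaves 2 mice per group. In it 6 of the 10 genes reached an unadjusted edgeR p under 0.05 (Fth1, Ftl1, Tfrc, Trf, Slc11a1 and Heph), against 17.6% of the 13145 genes tested there. Fth1, Ftl1 and Slc11a1 had higher fitted values in SRF, and Tfrc, Trf and Heph lower ones. The edgeR test called 0 of the 10 and 1.16% of all genes, and DESeq2 called 1 of the 10, Tfrc, and 3.86% of all genes. Slc11a1 gave 0.71 ± 0.22 and Trf -0.34 ± 0.15 (SE, edgeR adjusted p = 0.176 and 0.276). Among the genes with full IRE matches, the 5′ genes Fth1, Ftl1 and Slc40a1 had positive log2 fold changes and the 3′ gene Tfrc a negative one, both with all libraries and without these 2. None of these 4 was called by edgeR in either comparison. Alas2, the red cell enzyme that starts haem synthesis, also has a full match in its 5′ UTR and differed in the other direction, by -0.24 ± 0.24 with all libraries and -0.30 ± 0.20 without these 2 (SE, edgeR adjusted p = 0.971 and 0.453). This grouping by IRE position was made after the values were seen and was not tested.

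**Figure D4:**
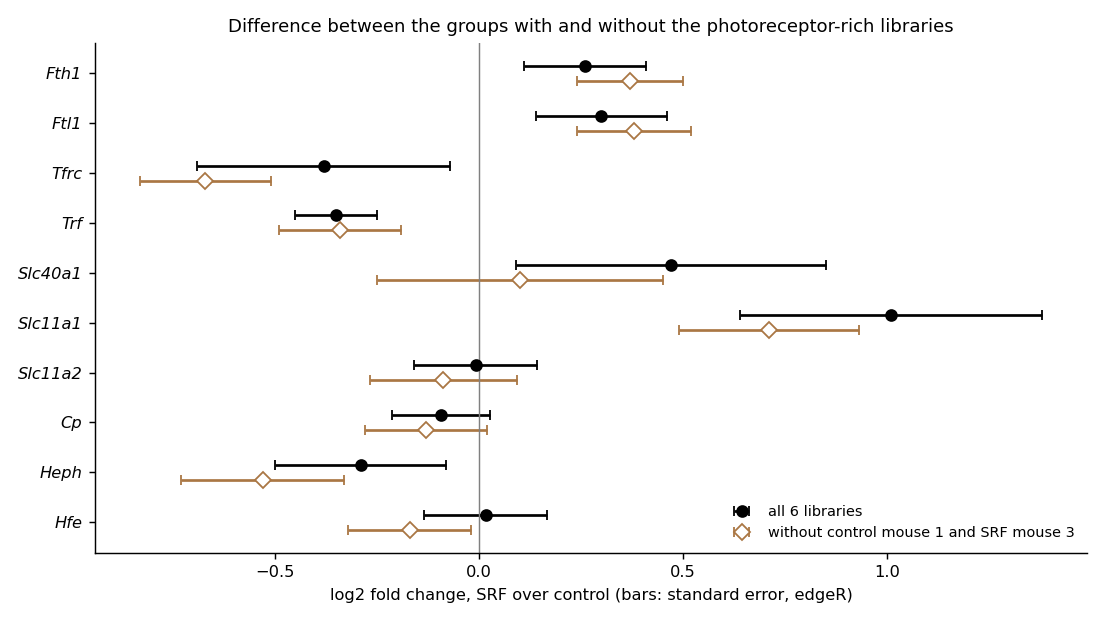
Log2 fold change of SRF over control for each gene with its standard error (edgeR), from all 6 libraries (filled circles) and without control mouse 1 and SRF mouse 3 (open diamonds). Tfrc goes from -0.38 to -0.67 and Slc40a1 from 0.47 to 0.10, whereas Trf stays near -0.35.

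Other genes of iron and haem handling were counted over 6 lists holding 65 genes, of which 61 were listed and 57 tested. EdgeR and DESeq2 each called 0 of the 57. An unadjusted edgeR p under 0.05 was reached by 7 of them (12.3%, against 7.01% of all tested genes), 3 with higher and 4 with lower values in SRF. The groups did not overlap for 3 with higher values (5.26%, against 6.71%) and for 9 with lower values (15.8%, against 6.43%). The median log2 fold change of the 57 was 0.00, as for all tested genes. Without control mouse 1 and SRF mouse 3, 13 of 56 reached an unadjusted edgeR p under 0.05 (23.2%, against 17.6%), and edgeR called 0. There DESeq2 called 2 of them (against 3.86% of all genes), Hjv with higher and Ncoa4 with lower values in SRF. Hjv, the gene of the hepcidin regulator hemojuvelin, had a log2 fold change of 1.49 and Ncoa4, the receptor that takes ferritin to the lysosome, one of -0.59 (DESeq2 adjusted p = 0.00151 and 0.0461).

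Haem transport and breakdown gave 3 of the 7. Hmox1, the haem oxygenase that frees iron from haem, lay at 19.0, 23.0 and 18.7 CPM in controls and at 28.7, 30.8 and 26.8 CPM in SRF mice, with each SRF mouse above each control. Its log2 fold change was 0.51 ± 0.14 (SE, edgeR adjusted p = 0.421). Flvcr1, a choline transporter also described as a haem exporter, lay at 11.8, 10.3 and 10.1 CPM in controls and at 14.6, 16.0 and 18.1 CPM in SRF mice, and Flvcr2, its relative, at 310, 312 and 328 CPM in controls and at 238, 231 and 254 CPM in SRF mice. Neither gene overlapped between groups, and they differed in opposite directions, by 0.59 ± 0.16 and -0.39 ± 0.10 (SE, edgeR adjusted p = 0.422 and 0.412). Flvcr2 had a DESeq2 adjusted p of 0.0203 but a difference smaller than the 0.5 required for a call. Of the 12 tested genes of this list 8 had higher and 4 lower fitted values, with a median of 0.09.

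Iron sensing gave 2 of the 7. Ireb2, which encodes iron regulatory protein 2, one of the proteins that bind the IREs shown above, lay at 43.8, 39.9 and 46.1 CPM in controls and at 31.9, 33.4 and 36.1 CPM in SRF mice. Its groups did not overlap, and the log2 fold change was -0.36 ± 0.12 (SE, edgeR adjusted p = 0.539). Neo1, encoding neogenin, a receptor that binds hemojuvelin, had a log2 fold change of 0.30 ± 0.13 (SE, edgeR adjusted p = 0.697). Aco1, which encodes the other iron regulatory protein and was named after its values were seen, lay at 112 ± 1.94 CPM in controls and 105 ± 4.44 CPM in SRF mice. Its groups did not overlap either, with SRF lower, and its log2 fold change was -0.092 ± 0.10 (SE, edgeR adjusted p = 0.974). Hamp, the gene of the iron hormone hepcidin, was not among the genes listed.

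Mitochondrial iron and iron-sulphur cluster genes gave the remaining 2, both with lower values in SRF. Isca2, an iron-sulphur cluster assembly factor, lay at 86.4, 90.7 and 84.2 CPM in controls and at 73.1, 66.6 and 70.1 CPM in SRF mice, with a log2 fold change of -0.32 ± 0.10 (SE, edgeR adjusted p = 0.516). Lyrm4, a partner of the cysteine desulphurase that supplies the sulphur, had a log2 fold change of -0.35 ± 0.11 (SE, edgeR adjusted p = 0.518). Of the 14 genes of this list 10 had lower and 4 higher fitted values, with a median of -0.05. The lists of iron uptake and reduction (12 tested), iron chaperones and ferritin turnover (4 tested) and haem synthesis (9 tested) held no gene with an unadjusted edgeR p under 0.05. Their medians were 0.14, 0.03 and -0.15.

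**Figure D5:**
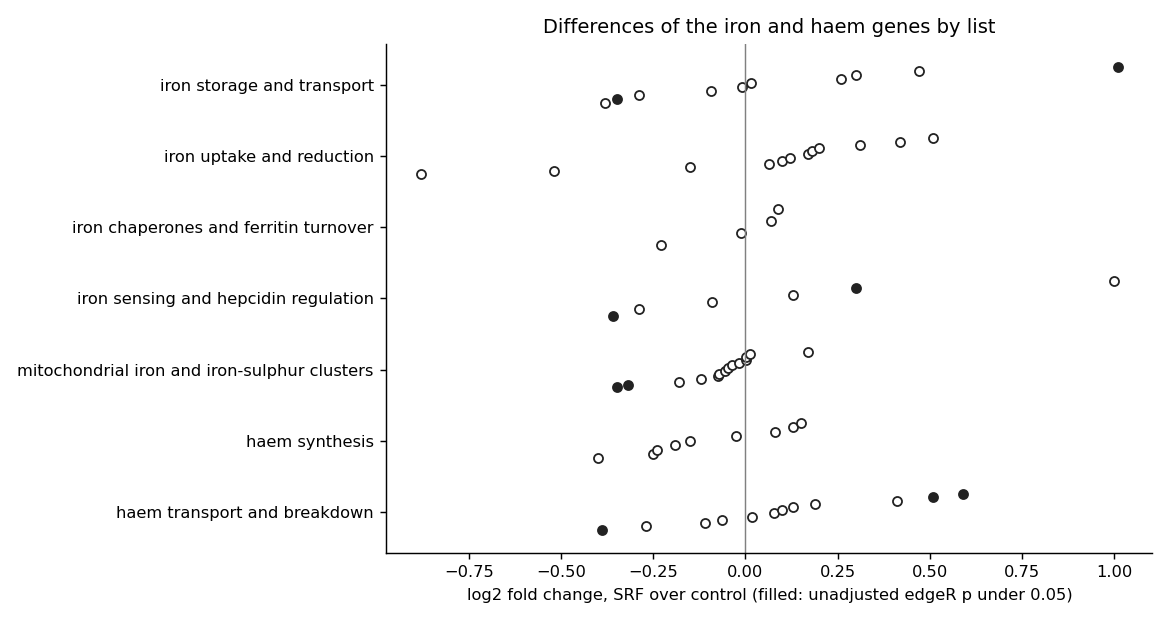
Log2 fold change of SRF over control (edgeR) for each tested gene of the 10 and of the 6 further lists, with filled points for an unadjusted p under 0.05. Filled points are 2 of the 10 genes and 7 of the other 57, on both sides of 0.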

How the data were processed

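RNA-seq of RPE-choroid from 3 control and 3 SRF mice was analysed. The authors filtered reads with FASTP and counted reads per gene with StringTie, and the deposited counts are whole numbers that were not normalized. FPKM values, scaled by transcript length and mapped reads, were deposited beside them. Aligner, genome build, annotation and strandedness are not given in the sources used here, and Ftl1, Slc11a2, Cp and Heph overlap genes on the other strand, whose reads may be mixed with theirs. The lowest count listed is 1, so only genes detected in all libraries are listed.

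Genes that exceeded 50 counts in 2 or more libraries were tested with edgeR 4.0.16 in R 4.3.3 (TMM, glmQLFit and glmQLFTest at their defaults, group as the only term), with Benjamini-Hochberg adjustment over all tested genes. Standard errors were derived from the fold change and the F statistic. DESeq2 1.42.0, limma 3.58.1, other scalings and filters, a replicate block and leaving out mice were alternatives. All fits were first tested on simulated counts. Positions, symbols and UTRs came from GENCODE M21 on GRCm38, which holds 15659 of 15663 identifiers. TMM factors lay between 0.978 and 1.026. Depth limits the scarce genes most, since 3 counts equal 0.123 to 0.22 CPM.

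Same-numbered libraries of the 2 groups are different animals, and the labels do not pair them. Their deviations from the group means correlated at -0.467, 0.501 and -0.281 across genes. Differently numbered libraries were not compared, so a batch shared by number was not tested. The labels do not say how many eyes a library holds. All 10 genes were named, and of the other lists each gene with an unadjusted edgeR p under 0.05 or a DESeq2 call, beside up to 3 markers per cell type. Members and lists were chosen with earlier results of these data known.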

Additional observations from a re-analysis of the deposited data

How the results depend on the processing

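The edgeR test called 0 genes. The count was 153 with DESeq2, also on every listed gene, and 153 without control mouse 1 and SRF mouse 3. It was 2 with limma on log2(FPKM + 0.1) or log2(FPKM + 1), and 1 with legacy = FALSE, limma-voom, upper-quartile factors, library size alone, no filter, filterByExpr or the photoreceptor covariate. Leaving out 1 mouse gave 0 to 5 genes, the 5 without control mouse 1. DESeq2 called 507 genes without control mouse 1 and SRF mouse 3 (added after the data were seen) and 67 to 343 with 1 mouse left out, the lowest without SRF mouse 2 and the highest without SRF mouse 3.

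None of the 10 iron genes was called by edgeR or limma in any of these settings. DESeq2 called 1 with the replicate block (Slc11a1), against 201 of all 13454 tested genes. It called 1 without control mouse 1 and SRF mouse 3 (Tfrc), against 507 of 13145 genes. With 1 mouse left out it called 0 to 1 of the 10, against 67 to 343 of all tested genes. The edgeR fit with the replicate block, in which the mouse number pairs libraries, called 0 genes and 0 of the 10.

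The direction held for 8 of the 10 genes in all 20 alternatives. Slc11a2 (main value -0.0081) was 0.0073 with upper-quartile factors, 0.040 with library size alone, 8.5e-05 with the replicate block and -0.12 to 0.11 with 1 mouse left out. Hfe (main value 0.016) was -0.17 without control mouse 1 and SRF mouse 3 and -0.070 to 0.16 with 1 mouse left out. The cause was not tested.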

Other observations

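Hjv, the gene of the hepcidin regulator hemojuvelin, was named after its values were seen. It lay at 6.33, 6.02 and 4.01 CPM in controls and at 17.4, 10.7 and 4.54 CPM in SRF mice, with SRF mouse 3 inside the control range (log2 fold change 1.0 ± 0.48, SE, edgeR adjusted p = 0.771). Without control mouse 1 and SRF mouse 3 the log2 fold change was 1.49 ± 0.32 (SE, edgeR adjusted p = 0.0703), and DESeq2, in a fit added after the data were seen, called the gene (adjusted p = 0.00151). Fbxl5, the iron-sensing subunit of a ubiquitin ligase, was highest in the 2 libraries rich in photoreceptor RNA, at 154 CPM in control mouse 1 and 206 CPM in SRF mouse 3 against 71.0 to 103 CPM in the other 4.

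Markers of other cells of the tissue were also counted. DESeq2 and edgeR each called 0 of the tested markers of Mueller glia and astrocytes (8), Schwann cells and oligodendrocytes (7), endothelium (8) and fibroblasts (7). Over all tested genes DESeq2 called 1.14% and edgeR 0%. An unadjusted edgeR p under 0.05 was reached by 1, 0, 0 and 2 of them, against 7.01% of all tested genes. The glial marker was Rlbp1, with a log2 fold change of -0.30 ± 0.11 (SE, edgeR adjusted p = 0.609). Rlbp1 is also among the 12 RPE markers counted above. All 7 fibroblast markers had higher fitted values in SRF, with a median log2 fold change of 0.53, as did 6 of the 7 Schwann cell and oligodendrocyte markers, with a median of 0.67. The Schwann cell and oligodendrocyte markers summed to 923, 679 and 896 CPM in controls and to 706, 1680 and 818 CPM in SRF mice. Only SRF mouse 2 thus exceeded the controls. Without control mouse 1 and SRF mouse 3, a comparison that keeps SRF mouse 2, the fibroblast median was 0.24 and the Schwann cell and oligodendrocyte median 0.96. There DESeq2 called 1, 1, 0 and 2 markers of the 4 lists in the order given, against 3.86% of all tested genes.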
